A study of Mus musculus with 12 samples.

Results

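The genes described here are 37 smooth muscle and pericyte contractile genes, taken by symbol from a fixed list, out of 32419 genes listed in either of the deposited expression tables (29965 in the table for NX/NG and 29775 in the table for OGD-R). All 37 were listed in both tables. They fall into actin isoforms (3 genes), thin filament proteins (10), myosin chains (6), genes that control contraction (7), anchoring and LIM proteins (8), and a regulator with 2 mural markers (3). By where they are usually expressed, 18 are enriched in muscle, 2 (Cspg4 and Rgs5) are mural surface or signalling genes, and 17 are made by many cell types.

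Smooth muscle cells and pericytes, together called mural cells, wrap the vessel wall and set its width. They pull by sliding myosin along actin filaments, and the pull is switched on when myosin light chain kinase phosphorylates the light chain and is switched off by myosin phosphatase. The muscle forms of these proteins are under the control of serum response factor (SRF) with its partners myocardin and the MRTF proteins, and cultured endothelial cells can also make several of them.

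RNA-seq libraries were made from primary mouse brain endothelial cells (BECs), isolated from 8-week-old C57BL/6 mice and enriched by 60 h in puromycin, each replicate pooled from 3 mice of a genotype. Cort+/+ mice are wild type, and Cort-/- mice carry a constitutive deletion of the gene for the neuropeptide cortistatin. Cultures stood either 24 h under normoxia and normoglycemia (NX/NG, labelled NM: 21% O2, 5.5 mM glucose) or 4 h at 1% O2 without glucose and serum, with 20 h of renewed oxygen after it (OGD-R, labelled OGD). The labels give every sample as an ischemic stroke model, while the methods of the study describe cultured cells.

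Of 12 samples listed, 10 had a column of RPKM (reads scaled to the length of the gene and the size of the library): 3 Cort+/+ and 2 Cort-/- replicates in each environment. Recovered reads on genes lay between 12386048 and 12390428 per library. The deleted gene, Cort, was under a floor of 3 reads in all 10 libraries, at most 2 reads in Cort+/+ and 0 in Cort-/-, and gives no check of the labels. A pair of libraries, Cort+/+ OGD-R replicate 1 and Cort-/- OGD-R replicate 3, held 0.0775% and 0.0951% of their reads on the ribosomal gene Rn18s-rs5, against 7.64% to 15.8% in the other libraries. The former is left out of the study's own heatmaps, so comparisons were made without it, and its values are printed throughout. The RPKM were scaled within each environment, so levels set side by side across environments are as deposited, while fits and statements on overlap across them use values scaled together, which were 0.974 to 1.03 times the deposited ones. Nothing in these bulk libraries tells fewer cells of a kind apart from less RNA per cell.

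The promoters of contractile genes are known for the CArG box, the element that SRF binds. RefSeq windows on GRCm38.p6, from 250 bases before to 50 after a start, were at hand for 31 of the 37 genes. No window was held for Myocd, Myh11, Tagln, Rock1, Actg2 and Csrp2. A strict CArG box (a pair of C, 6 bases of A or T, a pair of G, a pattern that reads the same on both strands) was found in 4 of the 37 windows of these genes, each in another gene, against 535 of all 32851 windows (1.63%). Below are 80 bases around the box (in capitals) of 3 of these genes, 5′ to 3′ on the strand of the gene, shown because they come from genes with unlike values after OGD-R in Cort+/+: Myl9 and Acta1 lay lower at an unadjusted p under 0.05, and Cnn2 had no such p. The 80 bases of Myl9 are chr2:156775263-156775342 on the plus strand, and the box in them starts 161 bases before the start site. Those of Acta1 are chr8:123894809-123894888 on the minus strand, with the box 73 bases before the start site. Those of Cnn2 are chr10:79988504-79988583 on the plus strand, with the box 56 bases before the start site.
Myl9: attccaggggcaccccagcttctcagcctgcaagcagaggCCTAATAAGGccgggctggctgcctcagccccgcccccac
Acta1: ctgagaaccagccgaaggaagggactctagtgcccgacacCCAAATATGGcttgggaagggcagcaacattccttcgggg
Cnn2: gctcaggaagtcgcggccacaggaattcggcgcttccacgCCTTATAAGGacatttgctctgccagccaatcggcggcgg

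The fourth was Myl6, with the box at a second start site, and this gene lay higher after OGD-R in Cort+/+ at such a p. The Acta2 window held none of this strict form, which says only that these letters are absent from that window.

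The mean levels of the 37 genes ran from 0.0662 RPKM (Pdlim3) to 888 RPKM (Acta2). Acta2, the smooth muscle α-actin and the usual marker of contractile mural cells, was the most abundant, at 629.9 to 1079.7 RPKM, followed by Tagln (transgelin, an actin-bundling protein) at 358 to 684 RPKM and the LIM protein Csrp1 at 388 to 469 RPKM. Acta2 stood at 48.5% to 89.8% of the level of the cytoplasmic actin Actb in the same library, per length. The mean over all libraries was at least 100 RPKM for 13 genes, at least 10 RPKM for 24 and at least 1 RPKM for 33. Among the broadly expressed genes 15 of 17 reached 10 RPKM, against 9 of 18 of the muscle-enriched genes.

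**Figure D1:**
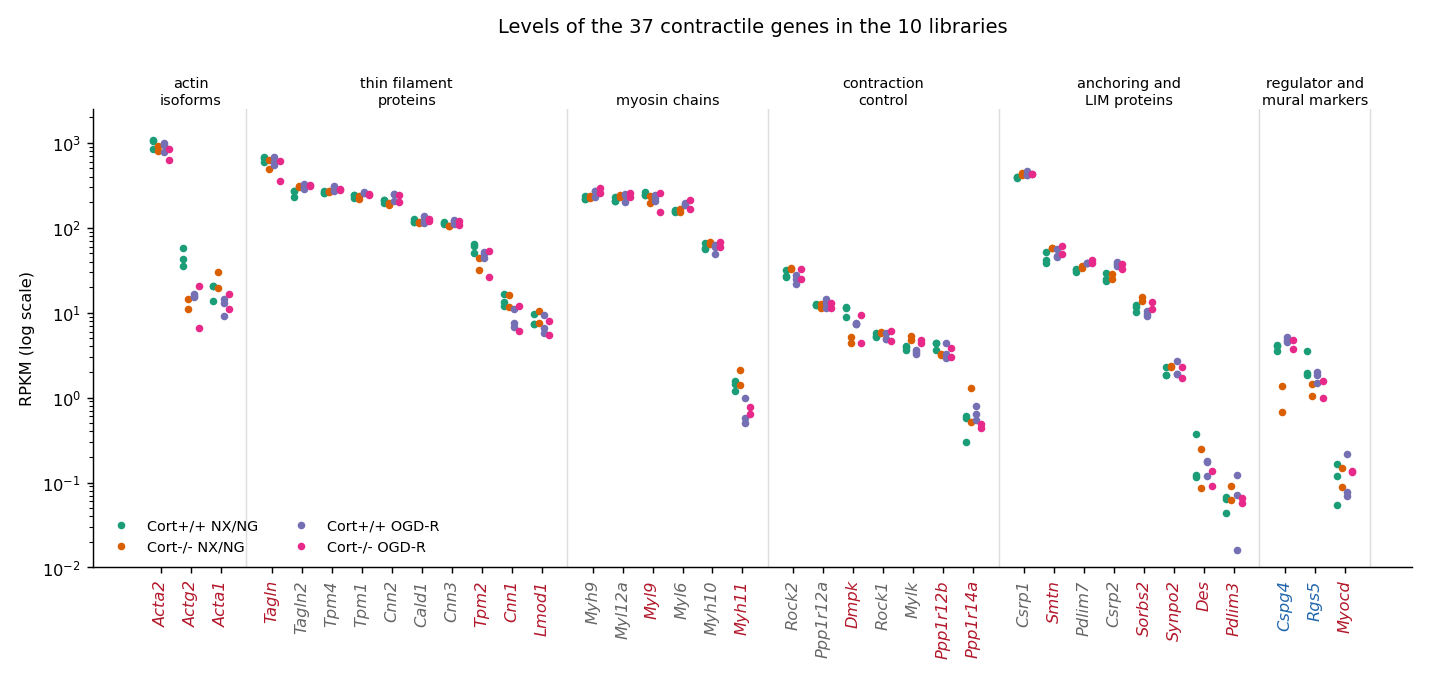
Level of each of the 37 genes in each of the 10 libraries, in RPKM on a log axis, grouped by role and coloured by group; gene names in red are muscle-enriched, in blue mural and in grey broadly expressed. Acta2 and Tagln stand with the broadly expressed genes, while Myh11, Des, Pdlim3 and Myocd lie at or below 2.11 RPKM.

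Several genes that separate mature smooth muscle from other cells were low, while others were not. Myh11, the smooth muscle myosin heavy chain, lay between 0.506 and 2.11 RPKM, where the non-muscle heavy chain Myh9 lay between 218 and 292 RPKM. Des (desmin, the muscle intermediate filament) did not pass 0.369 RPKM, Myocd (myocardin) 0.215 RPKM and Pdlim3 0.122 RPKM, or 17, 19 and 7 reads. Smtn, Tpm2, Cnn1 and Lmod1, also muscle-enriched, were higher, at 38.2 to 60.3, 26.4 to 65.2, 6.08 to 16.4 and 5.40 to 10.4 RPKM. Of the pericyte markers, Kcnj8, Abcc9, Atp13a5, Higd1b and Vtn all lay below 1 RPKM in every library. The summed pericyte list of 10 genes (28.9 to 72.5 RPKM) came mostly from Cd248 and Pdgfrb, which fibroblasts make as well. Of the smooth muscle list of 7 genes, Casq2, Aoc3 and Fhl5 also lay below 1 RPKM, while Sncg (6.87 to 22.6 RPKM), Mustn1 (7.45 to 14.8 RPKM), Itga8 (6.49 to 9.10 RPKM) and Kcnmb1 (2.22 to 4.09 RPKM) lay above it in every library. Endothelial markers summed to between 914 and 1370.2 RPKM over 10 genes, all of them above 0 in every library. Of these, 9 lay above 1 RPKM in every library, and Slco1a4 lay below it, at 0.0859 to 0.496 RPKM. What part mural cells, fibroblasts and endothelial cells had in the Acta2 and Tagln levels was not tested.

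**Figure D2:**
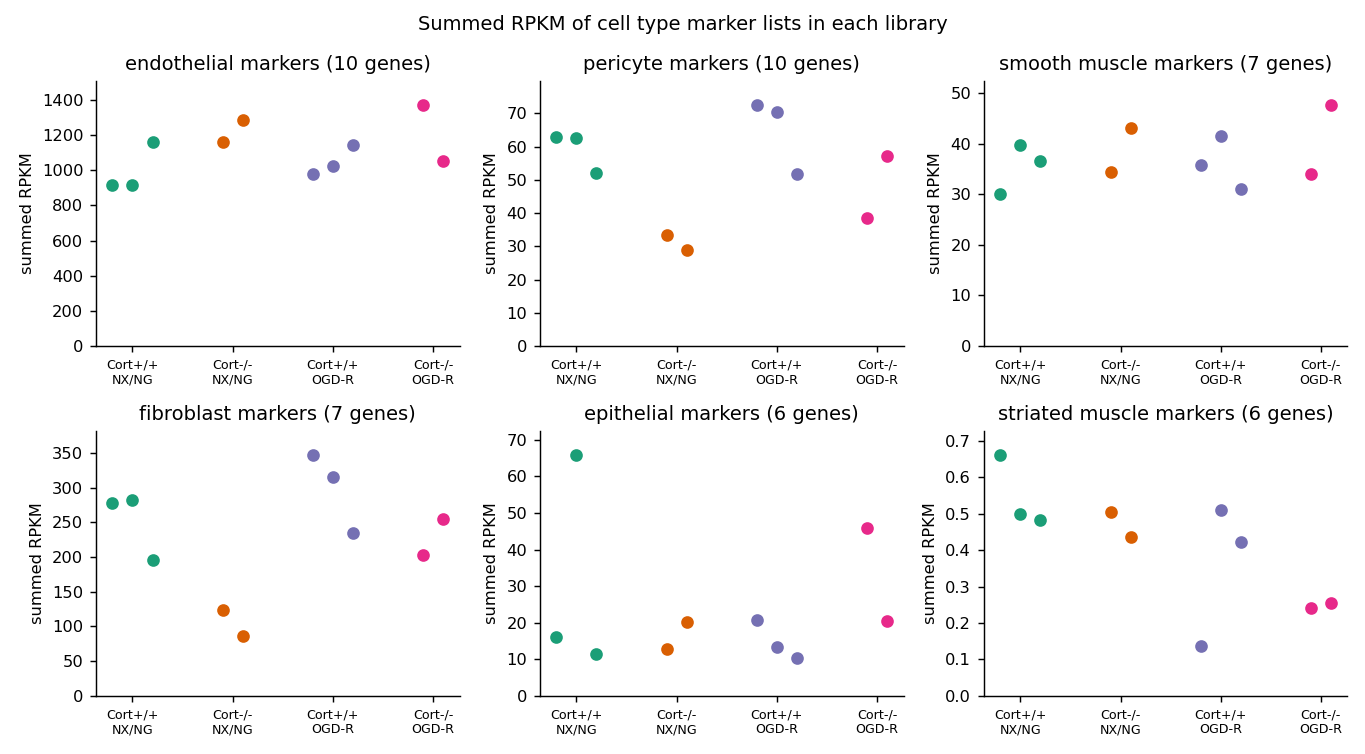
Summed RPKM of 6 cell type marker lists, 1 point for each library, with each axis starting at 0. Fibroblast and pericyte sums are lowest in both Cort-/- NX/NG libraries, and epithelial sums are highest in a Cort+/+ NX/NG and a Cort-/- OGD-R library.

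The first comparison asked what the lack of cortistatin does to resting BECs. Under NX/NG the γ-smooth muscle actin Actg2, the kinase Dmpk and the NG2 proteoglycan Cspg4 stood lower in both Cort-/- libraries than in all 3 Cort+/+ libraries, by 2.18 to 3.77 times in the fit. The most abundant of the muscle-enriched genes, Acta2, Tagln and Myl9, differed by 1.15 to 1.16 times in the fit. No gene passed the threshold, an FDR of at most 0.05 with limma and Benjamini-Hochberg adjustment, out of 29965 tested (0%). At an unadjusted p under 0.05, 6 of the 37 genes were lower (16.2%, against 4.82% of all genes tested) and 3 were higher (8.11%, against 3.56%). With limma-voom, which models the recovered reads, 3 of the 37 passed, Actg2, Dmpk and Cspg4, all lower, against 105 lower calls over all genes (0.35%), and 18 had an unadjusted p under 0.05 (against 11% of all genes).

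Among the actin isoforms, Actg2 (chr6:83512905-83536265, GRCm38) read 57.8, 42.8 and 35.7 RPKM in the Cort+/+ libraries and 14.4 and 11.1 RPKM in the Cort-/- libraries. The groups did not overlap, and the log2 difference was -1.81 (SE 0.23, FDR 0.15 with limma and 0.0116 with limma-voom). Acta2 (chr19:34241090-34255590) read 1054, 1079.7 and 844 RPKM in Cort+/+ and 907 and 797 RPKM in Cort-/-. Here the groups overlapped, and the log2 difference of -0.22 (SE 0.17) was little more than its error. Acta1, the skeletal muscle α-actin, read 13.6, 20.7 and 20.6 RPKM in Cort+/+ and 30.3 and 19.3 RPKM in Cort-/-, again with overlap. The 3 isoforms thus differed unequally. Actg2 amounted to 5.49%, 3.97% and 4.23% of the Acta2 level in the Cort+/+ libraries and to 1.58% and 1.40% in the Cort-/- libraries, a ratio that no scaling between libraries alters.

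Of the thin filament proteins, Tpm2 (β-tropomyosin) read 61.5, 65.2 and 50.3 RPKM in Cort+/+ and 43.6 and 31.5 RPKM in Cort-/-. These groups did not overlap, with a log2 difference of -0.66 (SE 0.18, limma FDR 0.437). Its broadly expressed relative Tpm1 read 221 to 243 RPKM in Cort+/+ and 237 and 215 RPKM in Cort-/-, so that Tpm2 made up 22.8% to 27.0% of the Tpm1 level in Cort+/+ and 18.4% and 14.6% in Cort-/-. Tagln read 670.2, 679 and 591 RPKM in Cort+/+ and 631 and 489.6 RPKM in Cort-/- and overlapped between the groups. Cnn1 (calponin, which damps actomyosin) read 13.2, 16.4 and 12.0 RPKM against 16.1 and 11.6 RPKM, and Lmod1 (leiomodin, which starts actin filaments) read 7.38, 9.52 and 7.42 RPKM against 10.4 and 7.51 RPKM. Both overlapped as well.

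The myosin chains stood close together. Myl9, the regulatory light chain of smooth muscle, read 240.0, 263 and 245 RPKM in Cort+/+ and 239 and 197 RPKM in Cort-/-, with a log2 difference of -0.20 (SE 0.11, limma FDR 0.681). The groups just failed to overlap. Myh11 (chr16:14194535-14291372) read 1.56, 1.45 and 1.21 RPKM against 2.11 and 1.42 RPKM, with overlap. The other 4, Myh9, Myh10, Myl6 and Myl12a, had fitted log2 differences between 0.03 and 0.16.

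The genes that control contraction split. Dmpk (chr7:19083849-19093821), the kinase mutated in myotonic dystrophy, read 11.5, 11.4 and 8.97 RPKM in Cort+/+ and 4.38 and 5.22 RPKM in Cort-/-. The log2 difference was -1.13 (SE 0.15, FDR 0.156 with limma and 0.0123 with limma-voom), and the groups lay apart. Ppp1r12b, a targeting subunit of myosin phosphatase, read 4.39, 4.34 and 3.62 RPKM against 3.19 and 3.23 RPKM, a log2 difference of -0.34 (SE 0.11, limma FDR 0.531). Mylk, the myosin light chain kinase, went the other way, with 3.59, 4.10 and 3.995 RPKM against 4.77 and 5.28 RPKM and a log2 difference of 0.36 (SE 0.10, limma FDR 0.434). The phosphatase subunit Ppp1r12a and the kinases Rock1 and Rock2 differed by -0.07, 0.09 and 0.23 on the log2 scale. Ppp1r14a, an inhibitor of myosin phosphatase, rested on 5 to 22 reads a library over the whole series.

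The anchoring proteins had mostly higher values in Cort-/-. Smtn (smoothelin) read 42.1, 38.2 and 52.4 RPKM in Cort+/+ and 57.4 and 57.4 RPKM in Cort-/-, a log2 difference of 0.39 (SE 0.14, limma FDR 0.563). Sorbs2, an adaptor between actin and adhesion sites, read 10.2, 11.7 and 12.2 RPKM against 15.3 and 13.7 RPKM, a log2 difference of 0.35 (SE 0.10, limma FDR 0.469). Both lay apart from the Cort+/+ range in both Cort-/- libraries. Synpo2, an actin-bundling protein, read 1.84, 1.86 and 2.31 RPKM against 2.38 and 2.32 RPKM. Of the 8 anchoring genes 7 had a fitted difference above 0, as did 14349 of the 29965 genes tested.

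The mural surface gene Cspg4 (chr9:56865033-56899870) read 3.55, 4.08 and 4.13 RPKM in Cort+/+ and 0.679 and 1.36 RPKM in Cort-/-. This was the widest gap of the 37 genes in this comparison, with a log2 difference of -1.91 (SE 0.29, FDR 0.212 with limma and 0.00643 with limma-voom). Rgs5, a signalling regulator used as a pericyte marker, read 1.97, 3.53 and 1.83 RPKM against 1.46 and 1.06 RPKM, a log2 difference of -0.86 (SE 0.33, limma FDR 0.592). Some marker lists of other cells differed as well. The pericyte list summed to 62.8, 62.5 and 51.9 RPKM in Cort+/+ and 33.5 and 28.9 RPKM in Cort-/-. Of its 10 genes 3 (Pdgfrb, Notch3 and Cd248) were lower at an unadjusted p under 0.05 (against 4.82% of all genes). The fibroblast list summed to 278, 282 and 195 RPKM against 123 and 85.6 RPKM. Of its 7 genes 3 (Col1a1, Col1a2 and Col3a1) were lower at such a p (against the same 4.82%). Pdgfra went the other way, at 0.485 and 0.706 RPKM in Cort-/- against 0.319 to 0.366 RPKM (0.66, SE 0.29, limma FDR 0.645). All 7 were above 0 in all 5 libraries. The endothelial list summed to 914, 914 and 1161 RPKM in Cort+/+ and to 1161 and 1288 RPKM in Cort-/-. Of its 10 genes 8 lay above 0 in the fitted difference, against 14349 of all 29965 genes. Erg, an endothelial transcription factor, read 64.5 to 91.6 RPKM against 100.3 and 109 RPKM. The smooth muscle list, free of members, summed to 30.0, 39.7 and 36.5 RPKM against 34.4 and 43.2 RPKM, and overlapped. The part of these cells in the Cspg4, Actg2 and Dmpk values was not tested. Without Cort-/- replicate 2 only 3 of the 37 genes, not 9, had an unadjusted p under 0.05 (against 9.56% of all genes). Cspg4 then passed (FDR 0.0293 with limma), as did 683 of 29216 genes (2.34%), on a single Cort-/- library, which the fit takes to vary like the others.

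**Figure D3:**
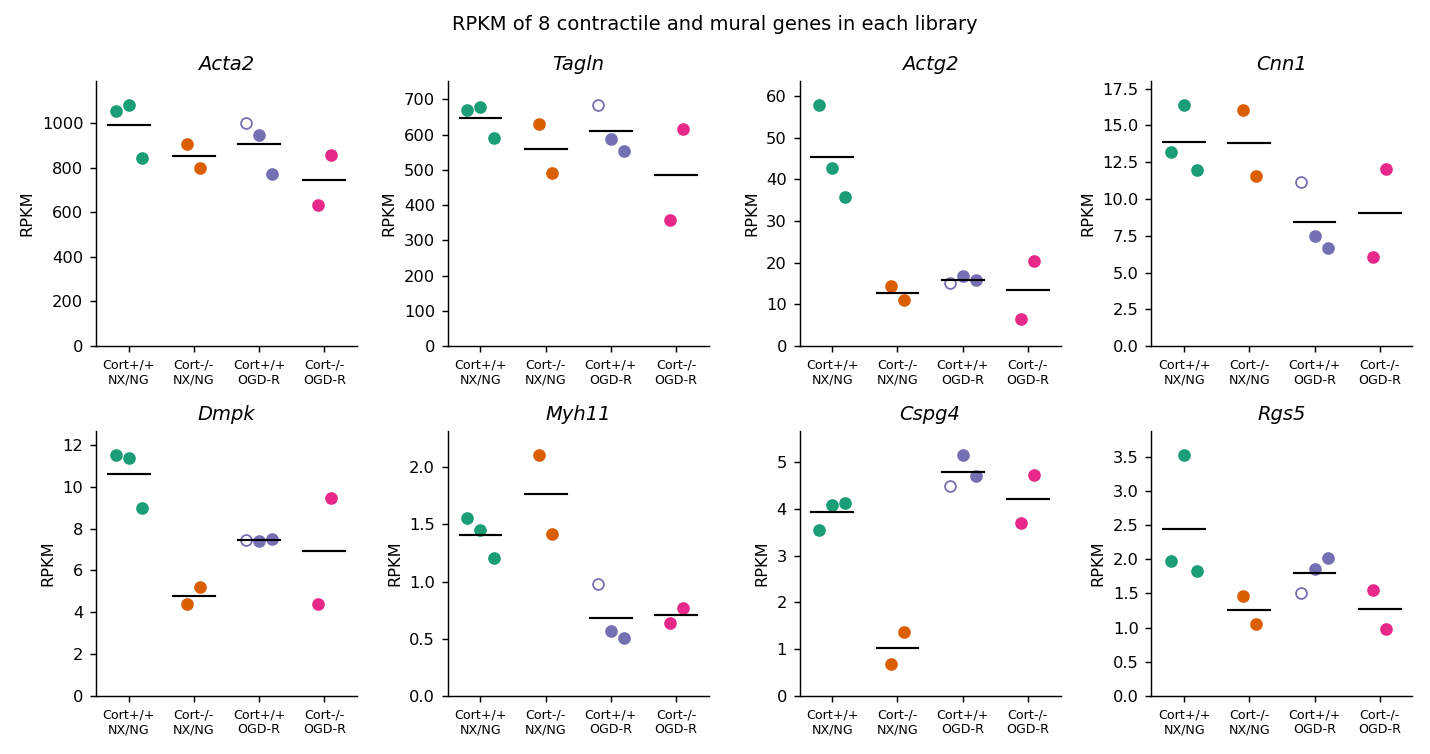
RPKM of 8 genes in each library, with each axis starting at 0; points are libraries, bars are group means, and the open circle is Cort+/+ OGD-R replicate 1. Actg2 is highest in the 3 Cort+/+ NX/NG libraries, Cspg4 is low in the Cort-/- NX/NG libraries alone, and Acta2 and Tagln overlap between all groups.

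The next comparison set OGD-R against NX/NG in Cort+/+ BECs, with 2 and 3 libraries. Most muscle-enriched contractile genes lay lower after OGD-R. Among them were Myh11, Cnn1 and Actg2, by 2.03 to 2.86 times, Acta1, by 1.71 times, and Dmpk, Lmod1, Tpm2, Ppp1r12b and Myl9, by 1.22 to 1.48 times. Of the broadly expressed genes, Csrp2, Pdlim7 and Myl6 lay higher, by 1.16 to 1.38 times, and Mylk lower, by 1.22 times. No gene passed with limma out of 26885 (0%). At an unadjusted p under 0.05, 11 of the 37 genes were lower (29.7%, against 3.06% of all genes) and 3 were higher (8.11%, against 3.71%). The muscle-enriched genes made up 10 of the 11. The median log2 difference of the muscle-enriched genes was -0.31, with 15 of 18 below 0. Smtn, Synpo2 and Ppp1r14a lay above 0 (0.14, 0.10 and 0.34). The broadly expressed genes had a median of 0.08, with 6 of 17 below 0. All genes tested had a median of -0.01, with 13945 of 26885 below 0. With limma-voom, Actg2 passed as the sole gene called lower (0.00372% of all genes), and 20 of the 37 had an unadjusted p under 0.05 (against 7.68% of all genes).

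Actg2 read 57.8, 42.8 and 35.7 RPKM under NX/NG and 15.2, 16.8 and 15.9 RPKM in OGD-R replicates 1, 2 and 3. All 3 OGD-R libraries lay under the NX/NG range, with a log2 difference of -1.52 (SE 0.20, FDR 0.251 with limma and 0.0178 with limma-voom). As in the genotype comparison the Cort+/+ NX/NG libraries are the high ones, and both comparisons share them. Over the other 7 libraries Actg2 ranged from 6.52 to 20.4 RPKM. Acta1 read 13.6, 20.7 and 20.6 RPKM under NX/NG and 14.6, 13.1 and 9.21 RPKM after OGD-R. Here the ranges overlapped through OGD-R replicate 1, and the log2 difference without it was -0.78 (SE 0.24, limma FDR 0.647). Acta2 read 999, 945 and 770.3 RPKM after OGD-R, overlapping its NX/NG range, with a log2 difference of -0.28 (SE 0.20). Tagln read 684, 589 and 554 RPKM after OGD-R, overlapping its NX/NG range through replicate 1, with a log2 difference of -0.25 (SE 0.13).

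Cnn1 (chr9:22099216-22109630) read 13.2, 16.4 and 12.0 RPKM under NX/NG and 11.1, 7.47 and 6.70 RPKM after OGD-R. The groups lay apart even with replicate 1, and the log2 difference without it was -1.02 (SE 0.15, limma FDR 0.270). Myh11 read 1.56, 1.45 and 1.21 RPKM against 0.977, 0.569 and 0.506 RPKM, also apart, with a log2 difference of -1.30 (SE 0.23, limma FDR 0.352). Each of these values rests on 46 reads or more. Myh11 amounted to 0.510% to 0.714% of the Myh9 level under NX/NG and to 0.189% to 0.362% after OGD-R. In both genes the OGD-R replicate low in ribosomal RNA was the highest of its group.

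Dmpk read 11.5, 11.4 and 8.97 RPKM under NX/NG and 7.43, 7.42 and 7.52 RPKM after OGD-R, with no overlap and a log2 difference of -0.56 (SE 0.13, limma FDR 0.517). Tpm2 read 52.4, 48.7 and 44.6 RPKM after OGD-R against 61.5, 65.2 and 50.3 RPKM, a log2 difference of -0.40 (SE 0.12, limma FDR 0.642). Tpm2 lay apart only once the libraries were scaled together, as did Myl9, Mylk and Sorbs2. Lmod1 read 9.44, 6.52 and 5.70 RPKM after OGD-R and overlapped its NX/NG values through replicate 1. Ppp1r12b did the same, at 4.40, 3.22 and 2.91 RPKM. Myl9 read 242, 223 and 209 RPKM against 240.0, 263 and 245 RPKM, a log2 difference of -0.28 (SE 0.09, limma FDR 0.642). Mylk, with 3.65, 3.43 and 3.23 RPKM, and Sorbs2, with 10.3, 9.14 and 9.63 RPKM, had log2 differences of -0.29 (SE 0.11) and -0.34 (SE 0.10).

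A few cytoskeletal genes stood higher. Csrp2, a LIM protein of smooth muscle, was counted here among the broadly expressed genes, so its rise is not part of the muscle-enriched figures. It read 23.9, 29.0 and 24.7 RPKM under NX/NG and 37.4, 39.8 and 35.2 RPKM after OGD-R. The groups did not overlap, and the log2 difference was 0.47 (SE 0.11, limma FDR 0.526). Pdlim7, a LIM adaptor, read 30.3, 32.0 and 32.3 RPKM against 38.4, 38.1 and 38.8 RPKM, a log2 difference of 0.21 (SE 0.06). Myl6, an essential myosin light chain, read 153, 157 and 163 RPKM against 183, 193 and 190.2 RPKM, a log2 difference of 0.21 (SE 0.07). Cspg4 read 4.49, 5.15 and 4.71 RPKM after OGD-R, and its log2 difference of 0.25 (SE 0.11) had an unadjusted p above 0.05.

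Marker sums stood as follows beside these values. Pericyte sums were 72.5, 70.3 and 51.7 RPKM and fibroblast sums 347, 316 and 235 RPKM after OGD-R, of which only 51.7 RPKM lay under the NX/NG range of its list. The smooth muscle list summed to 35.9, 41.5 and 31.1 RPKM, within its NX/NG range but for the second value. The part of these cells in the muscle-enriched values was not tested. Macrophage and microglial markers summed to 2.597 to 4.28 RPKM over the series, leptomeningeal markers to 8.08 to 13.6 RPKM and choroid plexus markers to 0.253 to 1.36 RPKM. The striated muscle list stayed under 1 RPKM in every library, and the epithelial list was highest, at 65.9 RPKM, in Cort+/+ NX/NG replicate 2. Without that library 8 of the genes described here had an unadjusted p under 0.05 (5.53% of all genes), where the main fit had 14 (6.77%). Without Cort+/+ NX/NG replicate 1 or 3 the count was 12 each time (5.67% and 7.39%). Each such fit also has fewer libraries than the main one, and the part of the epithelial sum in the count was not tested. Leaving out OGD-R replicate 2 or 3 keeps a single OGD-R library, so those counts are not set beside these. With all mapped libraries the count was 11 (against 5.48% of all genes), of which 8 were lower (against 671 of all 27075 genes). With all groups in one fit it was 9 (against 6.43%).

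**Figure D4:**
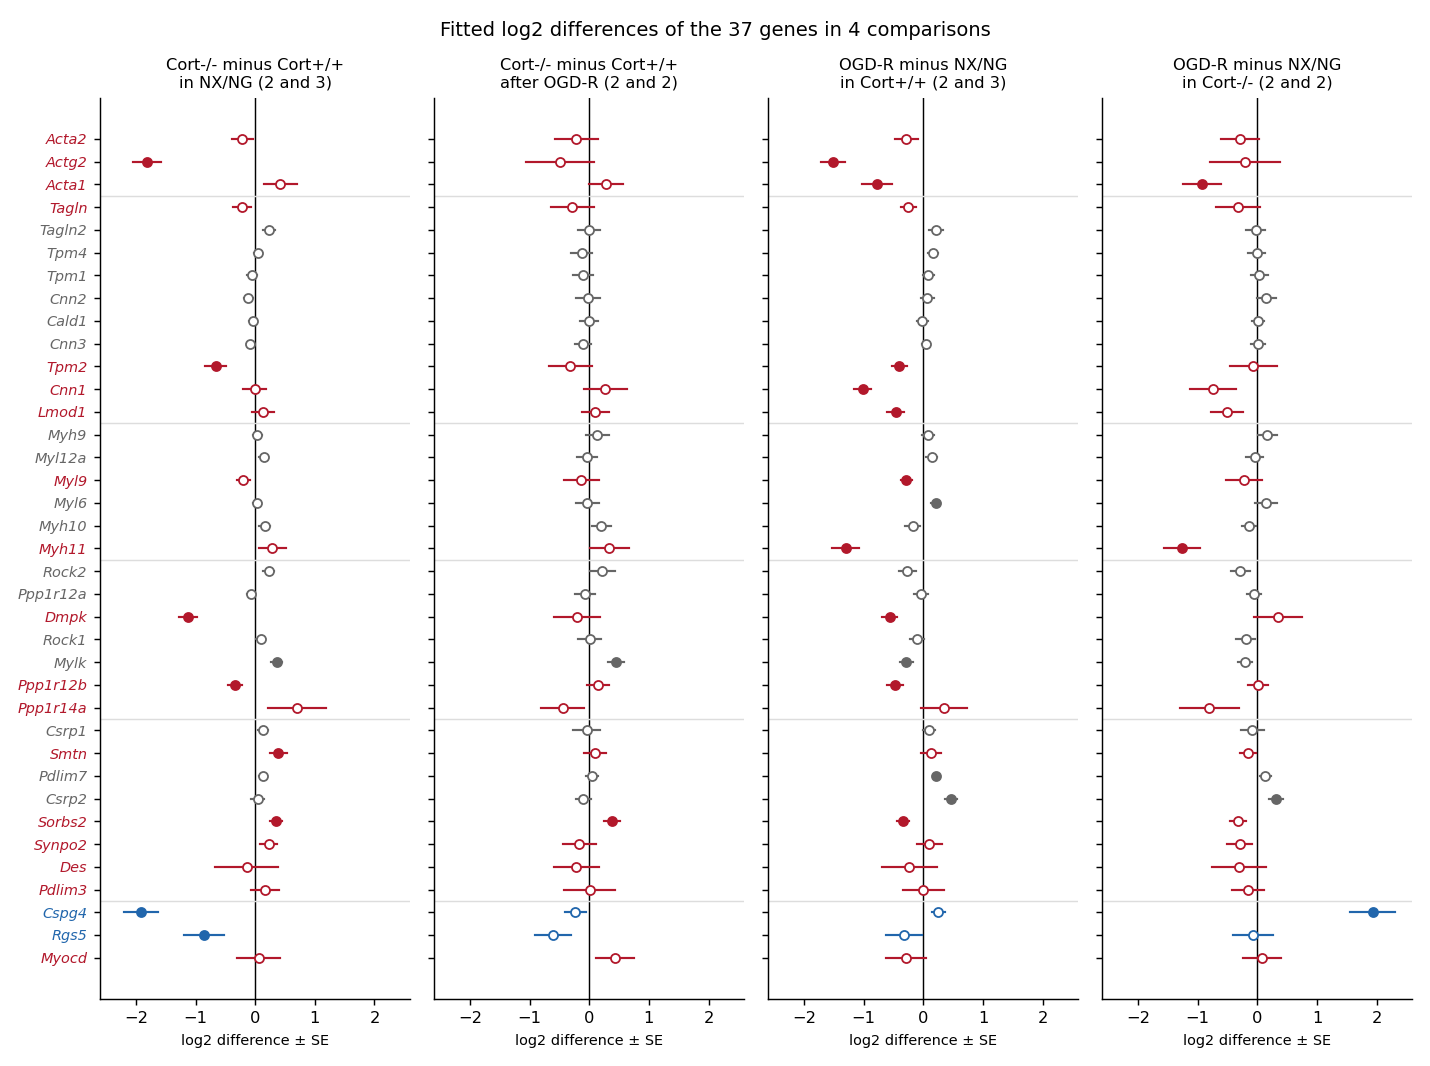
Fitted log2 differences of the 37 genes with their standard errors in 4 comparisons, named with the number of libraries on each side; filled points have an unadjusted p under 0.05, and none passed an FDR of 0.05. Red marks muscle-enriched, blue mural and grey broadly expressed genes. Muscle-enriched genes lie mostly left of 0 in both panels for OGD-R minus NX/NG.

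In Cort-/- BECs the same transition rested on 2 libraries against 2. Myh11 and Acta1 again lay lower after OGD-R and Cspg4 and Csrp2 higher, while Actg2 and Dmpk, already low under NX/NG, showed no shift beyond their spread. No gene passed with limma out of 26523 (0%), nor with limma-voom. At an unadjusted p under 0.05, 2 of 37 genes were lower (5.41%, against 1.87% of all genes) and 2 were higher (5.41%, against 2.21%), and with limma-voom 7 in all (against 3.98% of all genes). The muscle-enriched genes had a median log2 difference of -0.29, with 15 of 18 below 0, and the broadly expressed genes -0.01, with 9 of 17 below 0. All genes tested had a median of -0.004, with 13613 of 26523 below 0.

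Myh11 read 2.11 and 1.42 RPKM under NX/NG and 0.639 and 0.772 RPKM after OGD-R, with a log2 difference of -1.26 (SE 0.30, limma FDR 0.922). Acta1 read 30.3 and 19.3 RPKM against 10.9 and 16.4 RPKM, a log2 difference of -0.93 (SE 0.31). Neither gene overlapped between the environments. Cspg4 read 0.679 and 1.36 RPKM under NX/NG and 3.69 and 4.72 RPKM after OGD-R, inside the range of the Cort+/+ libraries, with a log2 difference of 1.93 (SE 0.37, limma FDR 0.754). Csrp2 read 28.3 and 24.9 RPKM against 33.0 and 36.997 RPKM, a log2 difference of 0.32 (SE 0.11). Beside Cspg4, the fibroblast list summed to 123 and 85.6 RPKM under NX/NG and to 203 and 255 RPKM after OGD-R, and the pericyte list to 33.5 and 28.9 RPKM and then 38.5 and 57.3 RPKM. Their part in the Cspg4 value was not tested.

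The 2 Cort-/- OGD-R libraries differed widely between themselves. Actg2 read 6.52 RPKM in replicate 1 and 20.4 RPKM in replicate 3, Dmpk 4.39 and 9.46 RPKM, Tpm2 26.4 and 52.9 RPKM, Tagln 358 and 615 RPKM, and Acta2 629.9 and 854 RPKM. Replicate 1 was the lowest of all 10 libraries for 9 of the 18 muscle-enriched genes (50%) and for 1 of the 17 broadly expressed genes (5.88%), against 10.53% of the 18402 genes with a value above 0 in every library. It also had an epithelial sum of 45.8 RPKM, with Krt8 at 11.9 RPKM, and the highest endothelial sum, 1370.2 RPKM. Replicate 3 is a library low in ribosomal RNA. The part of these features in the spread was not tested. Without replicate 3 none of the 37 genes had an unadjusted p under 0.05 (against 7.65% of all genes), and without NX/NG replicate 1 a single gene had one (against 5.01%).

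Whether the genotypes differed in their transition was asked by an interaction term over 9 libraries. No gene passed with limma out of 27321 (0%), nor with limma-voom. At an unadjusted p under 0.05 stood 2 of the 37 genes, both higher (5.41%, against 2.1% of all genes), and none lower (against 1.82%), and with limma-voom 4, all higher (against 4.17% of all genes in either direction). Cspg4 differed by 1.68 on the log2 scale (SE 0.38, limma FDR 0.997) and Ppp1r12b by 0.49 (SE 0.21, limma FDR 0.997). Actg2 (1.31, SE 0.64) and Dmpk (0.91, SE 0.43) had unadjusted p above 0.05 with limma and below it with limma-voom. Of the 37 genes 16 had an interaction above 0 (against 13764 of all 27321), and 24 after quantile normalization (against 13714), so that no common direction holds. Ppp1r12b read 3.19 and 3.23 RPKM under NX/NG and 3.02 and 3.85 RPKM after OGD-R in Cort-/-, overlapping. Without Cort-/- OGD-R replicate 1 the count was 7, all higher (against 7.98% of all genes in either direction), and it was 1, against 3.56% to 5.23% of all genes, without Cort-/- NX/NG replicate 1, either of Cort+/+ NX/NG replicates 1 and 2, Cort-/- OGD-R replicate 3, or either Cort+/+ OGD-R library.

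The last comparison set Cort-/- against Cort+/+ BECs after OGD-R, with 2 libraries each. Mylk and Sorbs2 stood higher in Cort-/- here too, and the genes that were lowest in Cort-/- under NX/NG were not set apart. No gene passed with limma out of 28862 (0%). At an unadjusted p under 0.05, 2 of the 37 genes were higher (5.41%, against 2.22% of all genes), and none was lower (against 2.17%). With limma-voom 3 had an unadjusted p under 0.05 (against 4.59% of all genes) and none passed. Of the 37 genes 21 had a fitted difference below 0 (against 14673 of all 28862), but 14 after quantile normalization (against 14324). So the direction of the whole list depends on the scaling.

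Mylk read 3.65, 3.43 and 3.23 RPKM in Cort+/+ replicates 1, 2 and 3 and 4.44 and 4.73 RPKM in Cort-/-, with a log2 difference of 0.45 (SE 0.13, limma FDR 0.907). Sorbs2 read 10.3, 9.14 and 9.63 RPKM against 13.5 and 11.1 RPKM, a log2 difference of 0.38 (SE 0.14). In both genes all Cort-/- libraries lay above all Cort+/+ libraries. Cspg4 read 4.49, 5.15 and 4.71 RPKM against 3.69 and 4.72 RPKM, and Rgs5 1.51, 1.86 and 2.02 RPKM against 1.56 and 0.983 RPKM. Both overlapped, Rgs5 only through Cort+/+ replicate 1. Acta2 (999, 945 and 770.3 RPKM against 629.9 and 854 RPKM) had a log2 difference of -0.22 (SE 0.36), Actg2 -0.49 (SE 0.57) and Dmpk -0.21 (SE 0.39), and in each of the 3 a Cort-/- library lay on either side of a Cort+/+ library. The count of 2 became 4 without Cort-/- replicate 1 (against 11.8% of all genes), 6 without Cort-/- replicate 3 (11.1%) and 0 without Cort+/+ replicate 2 (7.8%) or 3 (8.62%), where the whole comparison had 4.39%. With all mapped libraries it was 2 (3.42%), and 1 when low ribosomal RNA entered the fit as a term (4.42%).

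The genes around the contractile module were taken from lists of the SRF and MRTF axis (16 genes) and of mural fate (11). None of them passed with limma in any of the 5 comparisons. In the SRF and MRTF list, the early response genes Egr1 and Fos stood higher after OGD-R in Cort+/+ BECs, with log2 differences of 0.76 (SE 0.13) and 0.90 (SE 0.15), and in Cort-/- BECs, with 1.15 (SE 0.15) and 0.82 (SE 0.22). Egr1 read 5.22 to 6.60 RPKM under NX/NG and 9.81 to 11.4 RPKM after OGD-R in Cort+/+, with no overlap. In Cort+/+ 3 of the 16 genes were higher and 1 lower at an unadjusted p under 0.05 (against 3.71% and 3.06% of all genes). The third was Tgfb1i1, a partner of adhesion proteins (0.19, SE 0.07), and the lower one was the SRF partner Mrtfa (-0.23, SE 0.09). Srf itself read 14.6 to 15.4 RPKM under NX/NG and 16.2 to 18.1 RPKM after OGD-R in Cort+/+. So in Cort+/+ the SRF list had a median log2 difference of 0.05, where the muscle-enriched genes had -0.31. Under NX/NG, Egr1 was lower in Cort-/- (-0.64, SE 0.15), as the only one of the 16 (against 8.39% of all genes in either direction). After OGD-R, Fos was lower in Cort-/- (-0.36, SE 0.13), and Mrtfa had an interaction of 0.29 (SE 0.11), again as the only ones of the 16 (against 4.39% and 3.92% of all genes in either direction).

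In the mural fate list the transcription factor gene Klf4 was lower in Cort-/- under NX/NG, at 8.34 and 5.78 RPKM against 10.8 to 15.6 RPKM, with a log2 difference of -0.96 (SE 0.23, limma FDR 0.374). Pdgfb, the endothelial ligand that recruits pericytes, was higher there, at 91.8 and 99.3 RPKM against 62.7 to 83.7 RPKM (0.45, SE 0.14, limma FDR 0.507). After OGD-R in Cort+/+, Pdgfb was higher (0.37, SE 0.15) and the Notch ligand gene Jag1 lower (-0.48, SE 0.17). None of the 11 had an unadjusted p under 0.05 in the other 3 comparisons, where 3.92% to 4.39% of all genes did. The Pdgfb receptor gene Pdgfrb was lower in the Cort-/- NX/NG libraries, at 5.17 and 7.66 RPKM against 12.1 to 13.5 RPKM (-1.001, SE 0.17, limma FDR 0.252).

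Reads that also match transcripts of another gene could bear on some levels. Of all words of 40 bases in the GENCODE transcripts of Acta2, Acta1 and Actg2, 0.789%, 2.74% and 0% also occur in transcripts of another gene on either strand, and none occurs in another gene of the list. Cnn1, Dmpk, Cspg4, Tpm2 and Myl9 share 0%. For Tagln the share was 60.4%, with Gm48529 and Pcsk7, for Cnn3 27.9%, for Myl12a 22.1% (mostly with Myl12b), for Tpm4 17.7%, for Smtn 10.7% and for Myl6 9.98%. With words of 75 bases Tagln shared 53.3%. How the authors' counting treated such reads is not given in the sources used here, so that the levels of these 6 genes are uncertain.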

How the data were processed

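Expression was measured by RNA-seq in 10 libraries. The authors ran the reanalyzerGSE pipeline and deposited RPKM per gene, scaled within each environment. Per the labels edgeR was among the tools; aligner, build and annotation are not given in the sources used here, and the labels and methods name different kits and read lengths. Authors' fold changes, p-values and 10 columns of expression categories were not used. RPKM times length lay within 0.05 of whole reads for 99.996% of values in the library with the fewest, so reads were recovered.

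Each comparison was fitted with limma 3.58.1 in R 4.3.3 (two-sided, trend on mean expression) on log2(RPKM + 0.1) over genes above 0, with the groups compared only. Fold changes are on that scale, which understates those of low genes. Comparisons of environments and the interaction used reads of the 27321 genes in both tables, scaled together by a trimmed mean of M values. These values were 0.974 to 1.03 times the deposited ones. Scripts were checked on simulated reads. Alternatives are given in the closing section.

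Members and lists were chosen with earlier results of these data known. Genes named with values are muscle-enriched and mural members reaching 1 RPKM in a library, broadly expressed members with an unadjusted p under 0.05 in a comparison, and list genes with such a p and 1 RPKM; others named (Srf, Tpm1, low markers) were chosen after their values were seen. Per the methods each replicate is a separate pool of mice. Positions and transcripts come from GENCODE vM21 (GRCm38) by symbol, and promoters from RefSeq. A list of genes is not reported here.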

Additional observations from a re-analysis of the deposited data

Results flagged for a closer look

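Cspg4 and Ppp1r12b stood out because their difference between OGD-R and NX/NG was unlike in the 2 genotypes at an unadjusted p under 0.05 in the interaction term (limma), although neither passed the adjustment over 27321 genes (FDR 0.997 each). For Cspg4 the interaction was 1.68 on the log2 scale (SE 0.38). It had the same sign in all 17 alternatives, from 1.12 to 2.13. Cspg4 was low in the 2 Cort-/- NX/NG libraries (0.679 and 1.36 RPKM) and lay between 3.55 and 5.15 RPKM in the other 8. Fibroblast and pericyte marker sums were lowest in the same 2 libraries, and their part in the value was not tested. For Ppp1r12b the interaction was 0.49 (SE 0.21, unadjusted limma p 0.0499), from 0.24 to 0.66 in its 17 alternatives. With all mapped libraries, Cort+/+ OGD-R replicate 1 among them, it was 0.32 (SE 0.26, unadjusted limma p 0.259).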

How the results depend on the processing

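No member passed in the limma fits of any comparison, and none did under a pseudocount of 1, a filter of 1 RPKM in 2 libraries, quantile normalization, all mapped libraries or all groups in one fit. With limma-voom 3 passed in the NX/NG genotype comparison (against 0.414% of all genes) and 1 in the Cort+/+ environment comparison (against 0.0223%). It was also 1 there over all mapped libraries (against 0.00369%), an alternative added after seeing the data. Leaving out a replicate gave 0 to 1 members called in the NX/NG genotype comparison, where 0% to 2.34% of all genes passed.

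Members at an unadjusted p under 0.05 were 9 for genotype under NX/NG (18 with limma-voom, 3 to 13 without a replicate, where all genes gave 8.39%, 11% and 6.15% to 11.5%). They were 2 for genotype under OGD-R (1 with all mapped libraries and a ribosomal RNA term, 0 to 6 without a replicate, where all genes gave 4.39%, 4.42% and 7.8% to 11.8%), 14 for environment in Cort+/+ (9 with all groups in one fit, 7 to 12 without a replicate, where all genes gave 6.77%, 6.43% and 5.53% to 10.8%) and 4 for environment in Cort-/- (7 with limma-voom, 0 to 5 without a replicate, where all genes gave 4.08%, 3.98% and 4.83% to 13.8%). They were 2 for the interaction (1 with a pseudocount of 1, 1 with quantile normalization, 4 with limma-voom, 1 to 7 without a replicate, where all genes gave 3.92%, 3.99%, 3.88%, 4.17% and 3.56% to 7.98%). Where a group keeps 1 library, it is assumed to vary like the others.

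Correlations of deviations from the group mean ran from -0.531 to 0.185 for same-numbered replicates and from -0.325 to 0.531 for the others. In groups of 2 libraries the deviations mirror each other, so these values cannot tell whether same-numbered replicates were paired. With the replicate number as a block, 7 members had an unadjusted p under 0.05 for genotype under NX/NG (against 9.18% of all genes). They were 13 for environment in Cort+/+ (against 6.03%), 0 for genotype under OGD-R over all mapped libraries (against 2.64%) and 1 for the interaction (against 3.29%). No member was called. No block could be fitted for Cort-/- BECs across environments, which share 1 number.

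Signs turned for genotype under OGD-R in Acta2 (0.12 with quantile normalization, -0.44 to 0.0016 without a replicate), Actg2 (-1.31 to 0.32) and Dmpk (-0.75 to 0.34), and for environment in Cort-/- in Actg2 (-1.02 to 0.61) and Dmpk (-0.20 to 0.89). In each the positive end is without Cort-/- OGD-R replicate 1 and the negative end without replicate 3. The causes were not tested. With 2 or 3 libraries a group, and few reads for Pdlim3, Des, Myocd and Ppp1r14a, small differences were not detectable.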
